A study of Columba livia with 16 samples.

Results

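The regions described here carried peaks of the histone mark H3K27ac in the forelimb buds of both pigeon breeds and in the hindlimb buds of the Indian fantail, with no peak in the hindlimb buds of the racing homer. They were found by pooling 4 peak lists, joining intervals that overlapped by at least 1 bp and recording which lists had a peak in each merged region. Of 26456 merged regions, 666 had this pattern and are called members, which is 2.52% of all regions and 5.99% of the 11123 regions with peaks in both forelimb lists. The pattern was chosen because it is the one seen upstream of *Tbx5*, so the presence or absence of a peak in each list is the rule itself and not a result.

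The tissue was whole limb bud of domestic pigeon (Columba livia) embryos at Hamburger-Hamilton stage 25 (HH25). The Indian fantail is a small-muffed breed, with feathers on the feet, and carries a deletion upstream of *Pitx1*. In the study's expression assays the feather-footed embryos also had a derived haplotype at *Tbx5*. Those assays found *Tbx5* expressed in Indian fantail hindlimb buds at HH25. The racing homer is a scale-footed breed. Each of the 4 combinations of breed and limb had 2 ChIP and 2 input libraries, 16 in all, and a single deposited peak list in which the replicates were merged. Errors between replicates, and tests built on them, could therefore not be had. The labels give neither the sex of the embryos nor how many were pooled, and a whole bud holds several cell types, so that more cells with a mark and more mark per cell cannot be told apart.

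Acetylation of lysine 27 of histone H3 marks active enhancers and promoters, and its pattern differs between tissues that use different regulatory elements. *Tbx5*, a transcription factor of the T-box family, is needed for the forelimb to form and is normally active in the forelimb bud and silent in the hindlimb bud. *Pitx1*, a homeodomain factor, gives the hindlimb its identity. *Tbx3*, a T-box gene next to *Tbx5*, is expressed in both limbs. A region of the kind described here is thus one that both breeds mark in the forelimb and that, in the hindlimb, only the fantail list holds.

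The lists held 22407 peaks for the Indian fantail hindlimb, 15357 for the Indian fantail forelimb, 16474 for the racing homer forelimb and 18821 for the racing homer hindlimb. Each peak has a score from the peak caller, of at least 50 in every list, and between 59 and 169 peaks per list sit at exactly 3100. Scores of different lists are not on a common scale, and lists were compared only by percentile ranks (the percent of the peaks of that list with a lower score, with ties counted at their middle). The depth of the libraries is unknown from the lists. A peak missing from the racing homer hindlimb list shows only that no peak was called there, not that the mark was absent.

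Among the 15 presence patterns, the 666 regions formed the eleventh most frequent, as the plot of pattern counts shows. The mirror pattern, with peaks in both forelimb lists and in the racing homer hindlimb only, held 270 regions. A further 469 regions had peaks in both forelimb lists and in neither hindlimb list, and 9718 had peaks in all 4 lists. Of the 936 regions with both forelimb peaks and a peak in a single hindlimb list, 71.2% had it in the Indian fantail (95% Wilson interval 68.2 to 74.0%, which covers counting error only). This share was 72.5% of the 1947 regions with a peak in a single hindlimb list and in 1 forelimb list, and 72.3% of the 6123 such regions with no forelimb peak (intervals 70.4 to 74.4% and 71.2 to 73.4%). The 3 intervals overlapped, and the Indian fantail hindlimb list is the longest of the 4. With every list cut to its 15357 highest-scoring peaks, the share was 55.7% (680 regions against 541). With regions taken as racing homer forelimb peaks, and a peak counted as present where it shared 50% or more of its own and of that peak's bases, the direction turned, to 44.0% (807 regions against 1029).

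**Figure D1:**
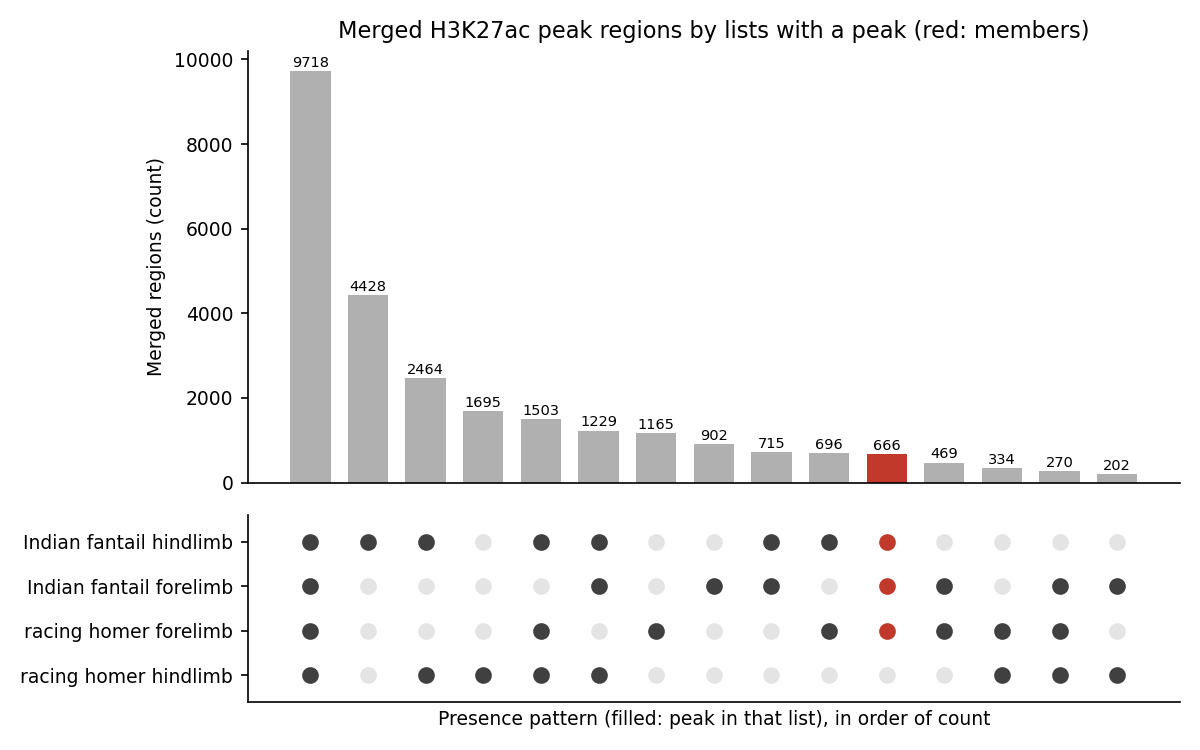
Number of merged H3K27ac regions (vertical axis, count) for each of the 15 presence patterns, with a filled dot for each list that held a peak. The pattern of both forelimbs and the Indian fantail hindlimb (red) held 666 regions, against 270 for its mirror with the racing homer hindlimb and 9718 for all 4 lists.

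The following shares describe the presence patterns that the rule draws on and are not a result about the members. Where both forelimbs had a peak and the racing homer hindlimb had none, 58.7% of 1135 regions had a peak in the Indian fantail hindlimb (interval 55.8 to 61.5%). The share was 44.2% (41.8 to 46.6%) of 1617 regions whose forelimb peak was in the Indian fantail alone, and 37.4% (35.2 to 39.6%) of 1861 regions whose forelimb peak was in the racing homer alone. Where the Indian fantail hindlimb had no peak, the racing homer hindlimb had one in 36.5% of 739 regions with both forelimb peaks (33.1 to 40.1%), in 18.3% of 1104 with the Indian fantail forelimb alone (16.1 to 20.7%) and in 22.3% of 1499 with the racing homer forelimb alone (20.2 to 24.5%).

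The window of *Tbx5* (0.64 to 0.76 Mb of scaffold 70, numbered as in the lists) held 7 merged regions, of which 2 were members and the other 5 had peaks in both forelimb lists only. No racing homer hindlimb peak lay in this window. The member upstream of *Tbx5* in the study's map, at 723453–736159, is 12707 bp long. Its Indian fantail hindlimb peak, at 727306–735823, had a score of 1381.07 and a rank of 96.6, the second highest score of the 666 hindlimb peaks. Its forelimb peaks both sat at the score of 3100, at rank 99.8 in the Indian fantail list and 99.7 in the racing homer list. The hindlimb peak, 8518 bp wide, began 3853 bp inside the Indian fantail forelimb peak and ended 336 bp before its end, and it covered 67.0% of the forelimb bases. The nearest racing homer hindlimb peak was 40547 bp away, and 101 of the 666 members (15.2%) lay more than 40 kb from such a peak. This count has no share over other regions beside it. The upper quartile of the gap was 24741.8 bp in members and 42751 bp in forelimb-only regions.

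The neighbouring member, at 686952–721600, was the longest of all, with 34649 bp, and had another form. The Indian fantail hindlimb had 3 narrow peaks inside it. They were 1218 bp wide with a score of 64.57 (rank 15.1), 1273 bp wide with 54.18 (rank 4.87) and 2155 bp wide with 177.47 (rank 59.8), the last being nearest to the other member. In the Indian fantail forelimb the region was a single peak of 34574 bp with a score of 744.86 (rank 94.5). In the racing homer forelimb it was split into 15256 and 18717 bp, both at the score of 3100. The 3 hindlimb peaks covered 4646 bp, or 13.4% of the forelimb bases, the third lowest cover of the 666. Thus only the shorter of the members near *Tbx5* was among the highest-ranked hindlimb peaks, and the longer was a member through peaks over a small part of its forelimb domain.

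The regions around these members show where the pattern ended. On 1 side lay 4 regions with forelimb peaks only, at 671298–674487, 674504–676498, 676540–677075 and 677169–686575, and on the other side a forelimb-only region at 739304–746888. In the adjoining *Tbx3* window (0.76 to 0.8 Mb), 7 of 8 merged regions had peaks in all 4 lists and 1, at 766620–768627, in both forelimb lists only. No member was found there. Over all merged regions, 36.7% had peaks in all 4 lists and 1.77% in both forelimb lists only. The change to regions present in both hindlimbs thus fell between 768627 and 776417.

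Members of 10 kb or more were few. There were 5, or 0.751% of the 666, against 3.20% of the 10384 regions with peaks in the 3 lists that define the members (members included). The mirror pattern also held 5 regions of this length, among its 270. The plot of the 5 long members shows the 2 *Tbx5* members and a region each on scaffolds 38, 872 and 68. No gene can be named for these 3, because no annotation of the assembly used for the lists was at hand.

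The region on scaffold 38, at 15677968–15694913, had the highest Indian fantail hindlimb score of all members, 1820.18 (rank 97.9). This hindlimb peak was a single one of 16122 bp. The forelimbs each had a pair of peaks under it, with a highest score of 2217.07 (rank 99.1) for the Indian fantail and 2243.63 (rank 98.9) for the racing homer. The hindlimb peak covered 94.95% of the forelimb bases, more than at either *Tbx5* member. Racing homer hindlimb peaks flanked this region, the nearest at 1748 bp with a score of 51.18 (rank 1.56). A peak shared by all 4 lists followed, with a racing homer hindlimb score of 726.06 (rank 93.3), so that, unlike the *Tbx5* window, the surroundings were marked in both hindlimbs.

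The region on scaffold 872, at 8849–21007, was a single Indian fantail hindlimb peak of 12159 bp with a score of 1093.28 (rank 94.99). It held 2 peaks of the Indian fantail forelimb (highest score 477.04, rank 89.1) and 3 of the racing homer forelimb (highest score 534.86, rank 89.7). Here the hindlimb rank was above both forelimb ranks, and all forelimb bases lay under the hindlimb peak. Toward the start of the scaffold the Indian fantail hindlimb had 3 more peaks of lower rank, the outermost overlapped by a racing homer hindlimb peak at 4–1564. The nearest racing homer hindlimb peak lay 5578 bp away on the other side, at 26586–29970. Beyond it was a racing homer hindlimb peak of rank 87.0, at 38648–42384.

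The region on scaffold 68, at 5670097–5682236, ranked lower in the hindlimb. Its Indian fantail hindlimb peak was 11861 bp wide with a score of 137.61 (rank 50.5). The highest forelimb scores were 578.69 (rank 91.7) for the Indian fantail and 523.52 (rank 89.4) for the racing homer, each among 3 peaks. The nearest racing homer hindlimb peak was 19226 bp away. The hindlimb peak thus spanned 97.6% of the forelimb bases at a much lower rank than the forelimb peaks had.

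**Figure D2:**
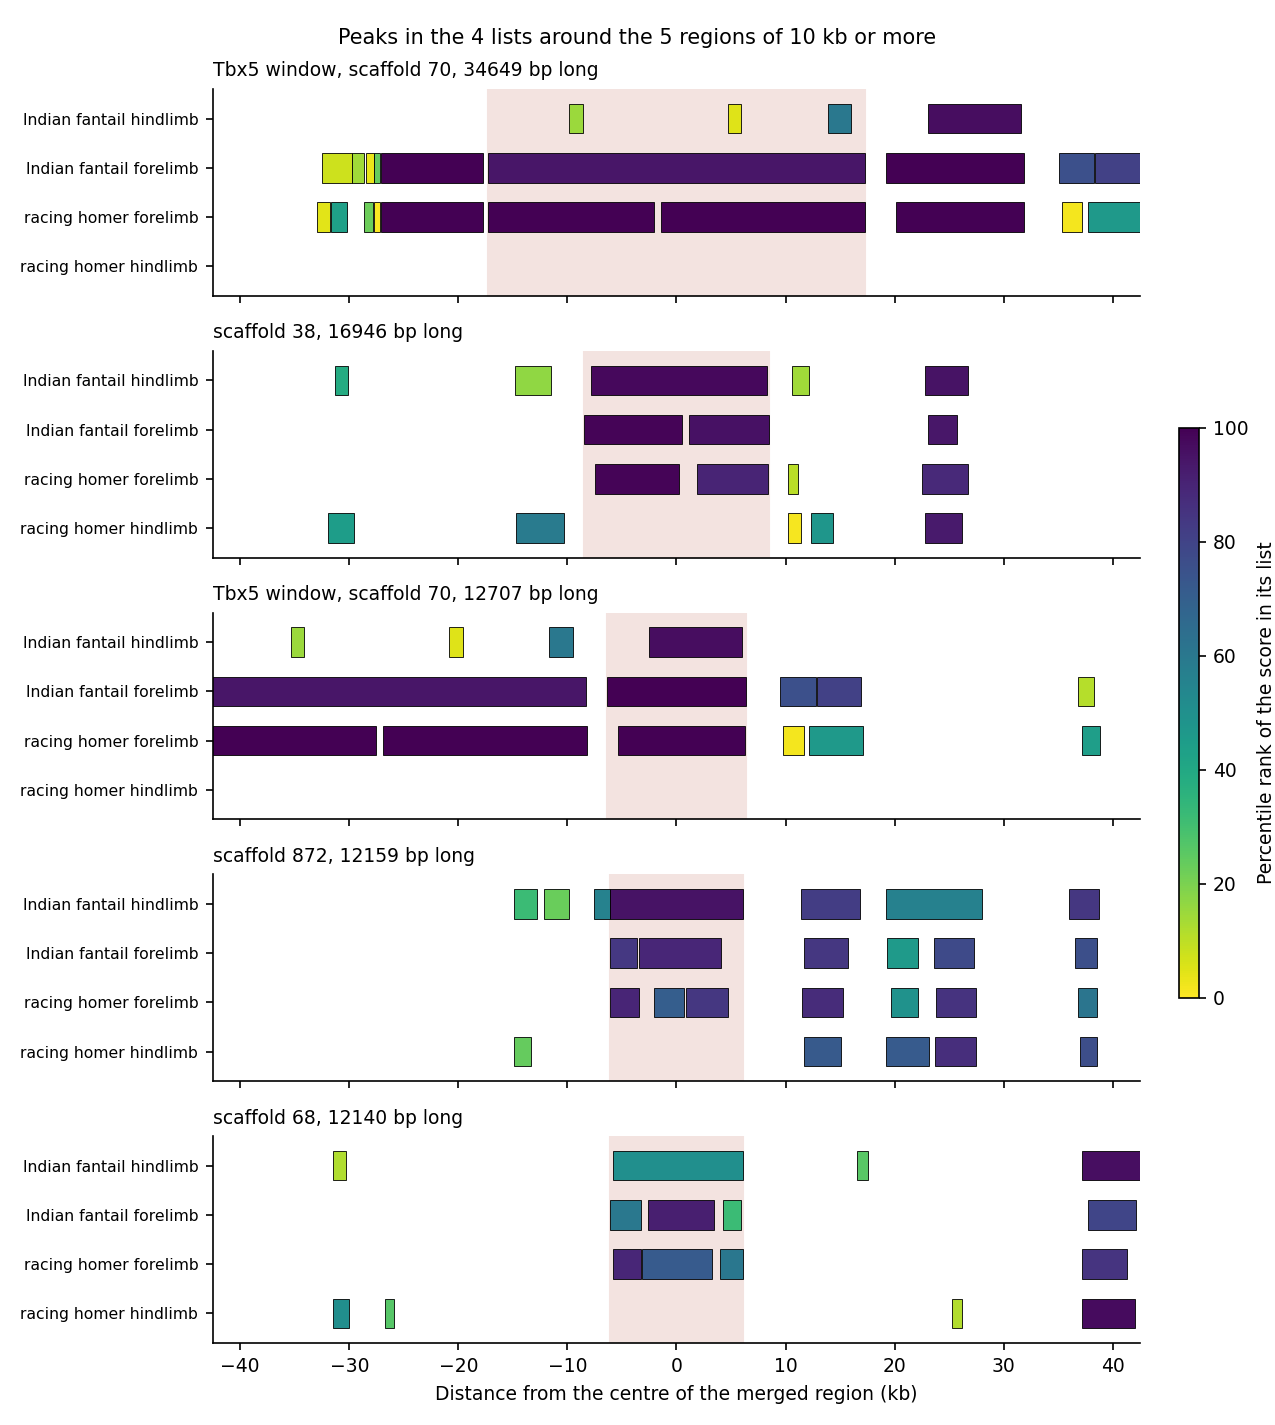
Peaks of each list (rows) around the 5 members of 10 kb or more, by distance from the centre of the merged region (kb), with the region shaded and each peak coloured by the percentile rank of its score in its list. No racing homer hindlimb peak falls in any shaded region, and neither panel of the Tbx5 window has one at all, whereas the regions on scaffolds 38, 872 and 68 have some within the panel. The scaffold of the fourth panel begins near the leftmost peak drawn.

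Most members were unlike these. The merged regions had a median length of 2229.5 bp (quartiles 1668.25 and 2708.75), and 601 of the 666 had exactly 1 peak in each of the 3 lists. The count of 601 has no share over other regions beside it. Median peak widths were 1679 bp in the Indian fantail hindlimb, 1636.5 bp in the Indian fantail forelimb and 1495 bp in the racing homer forelimb. These are close to the medians over all peaks of the same lists, which were 1644, 1703 and 1486 bp. The measures differ, since a region's width sums all its peaks in a list, and the list medians are of single peaks. By the summed measure, regions present in all 4 lists were wider, with medians of 2438, 2052.5 and 1898 bp in these lists. Only 16 members were 5 kb or longer (2.40%), against 17.3% of the 10384 regions.

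Scores of members were low in each list. The median score was 96.8 in the Indian fantail hindlimb (rank 35.9), 87.78 in the Indian fantail forelimb (rank 35.2) and 89.55 in the racing homer forelimb (rank 35.6). Regions of the mirror pattern had medians at rank 34.5 in the Indian fantail forelimb, 40.3 in the racing homer forelimb and 28.9 in the racing homer hindlimb. Forelimb-only regions had medians at rank 33.1 in the Indian fantail forelimb and 32.1 in the racing homer forelimb. Regions in all 4 lists had medians at rank 76.9 in the Indian fantail hindlimb, 65.2 and 67.1 in the forelimbs and 71.7 in the racing homer hindlimb. The interquartile range of the members overlapped that of both other patterns that lack a hindlimb peak, and in the Indian fantail hindlimb it lay wholly below that of the regions in all 4 lists, as the box plot of ranks shows.

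**Figure D3:**
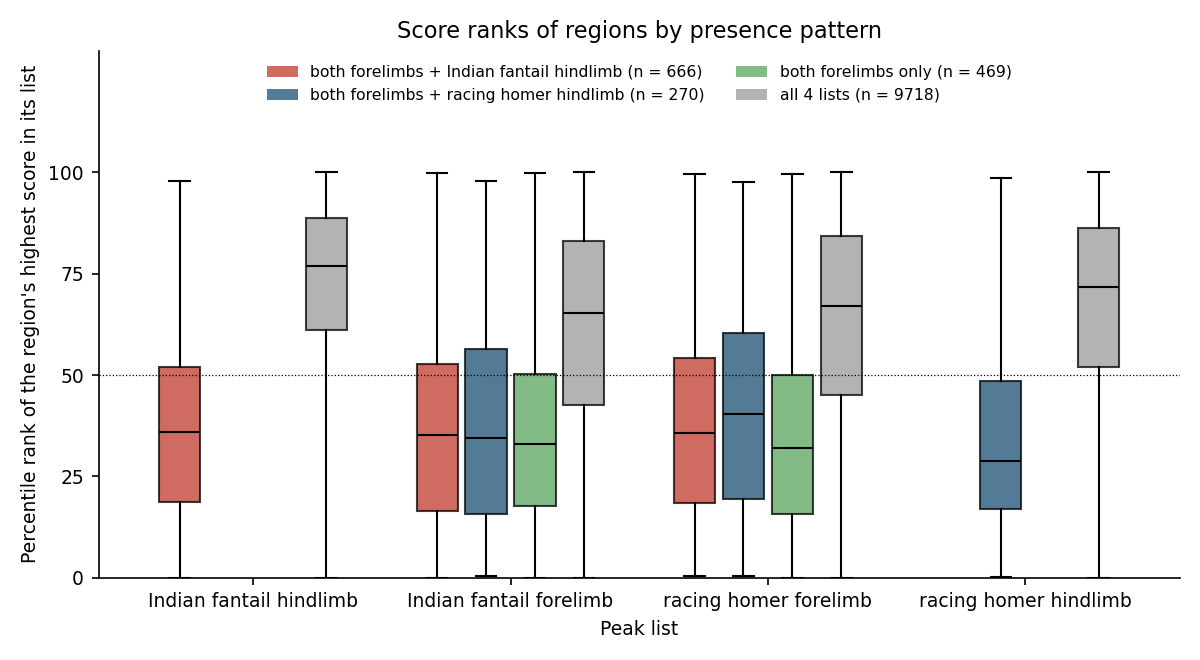
Percentile rank of a region's highest score in each list (vertical axis, 0 to 100) for the 4 presence patterns with peaks in both forelimbs; boxes give quartiles, lines inside them medians and whiskers the lowest and highest region. Members (red) have medians between 35.2 and 35.9 in their 3 lists, against 65.2 to 76.9 for regions in all 4 lists (grey).

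The Indian fantail hindlimb peak fell below the median score of its list in 468 of 666 members (70.3%), against 17.9% of the 10384 regions. For the forelimb peaks these counts were 472 for the Indian fantail and 457 for the racing homer (70.9% and 68.6%), against 34.6% and 32.3%. None of the 3 peaks reached the median of its list in 274 members, or 41.1%, against 9.99%. All 3 did so in 48 members (7.21%), against 53.0%. All 3 ranked at or above 75 in 3 members, those at 723453–736159 of scaffold 70, on scaffold 38 and on scaffold 872, and only the first 2 of these had every peak at or above 90. The backgrounds for these counts were 26.5% and 10.7%. The mirror pattern held more such regions among fewer, with 11 of 270 at or above 75 in all their lists and 7 at or above 90. All these counts rest on the lists that defined the members and are descriptions.

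Within the members, the hindlimb was not placed consistently above or below the forelimbs. The hindlimb rank was above both forelimb ranks in 252 members (37.8%), against 61.8% of the 10384 regions. It was below both in 233 members (35.0%), against 16.9%. The hindlimb peaks were wider than those of both forelimbs in 296 members (44.4%), against 64.5%. Across the 666 members, the ranks in the Indian fantail and racing homer forelimbs had a Spearman rho of 0.41, whereas the hindlimb rank had a rho of 0.15 with the Indian fantail forelimb and 0.08 with the racing homer forelimb. Over the 9718 regions in all 4 lists the same values were 0.80, 0.74 and 0.74. The regions share their libraries and their width, and members were selected on presence in these lists, so these values describe the set only.

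Members with strong forelimb peaks were split by their hindlimb peak. Both forelimb peaks ranked at or above 75 in 11 members (1.65%), against 28.5% of the 10384 regions. Of these 11, 8 had a hindlimb peak ranked below 75 and 4 had one below the median, where the shares over the 2964 regions with such forelimb peaks were 7.19% and 0.978%. The 4 with a hindlimb peak below the median were named after their values were seen. On scaffold 7, at 14464343–14466390, the Indian fantail hindlimb score was 50.72 (rank 0.859), beside 298.31 (rank 80.8) in the Indian fantail forelimb and 254.13 (rank 75.6) in the racing homer forelimb. On scaffold 64, at 2788736–2791791, the hindlimb peak ranked 7.12 and the forelimb peaks, in the same order, 88.0 and 79.1. On scaffold 38, at 24657–30244, the hindlimb peak ranked 14.1 and the forelimb peaks 86.3 and 83.2. On scaffold 618, at 965663–967266, the hindlimb peak ranked 36.7 and the forelimb peaks 91.8 and 83.0. The hindlimb peak was thus at or below rank 14.1 of its list in the first 3 of these members, and close to the median rank of all members in that on scaffold 618.

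**Figure D4:**
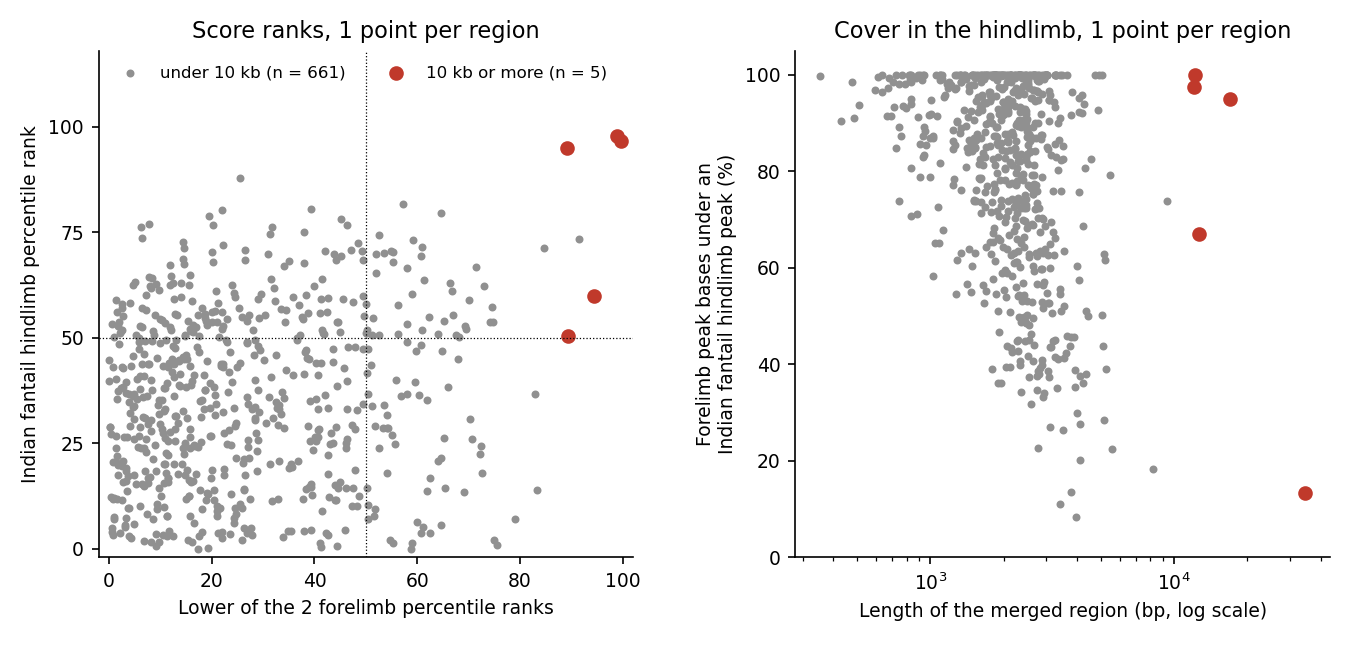
Left, percentile rank of the Indian fantail hindlimb score against the lower of the forelimb ranks for each of the 666 members, with medians of the lists as dotted lines. Right, percent of the forelimb peak bases under an Indian fantail hindlimb peak against the length of the merged region. The 5 members of 10 kb or more (red) all have forelimb ranks above 75, their hindlimb ranks run between 50.5 and 97.9, and their cover runs between 13.4 and 100%.

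The hindlimb peak usually lay over most of the forelimb peaks. The median cover of forelimb bases by Indian fantail hindlimb peaks was 85.9% (quartiles 67.1 and 97.3%). It was 90% or more in 279 members (41.9%) and under 50% in 76 (11.4%), counts with no share over other regions beside them. In the mirror pattern the median cover by racing homer hindlimb peaks was 74.2% (quartiles 58.8 and 88.4%). Cover was higher in regions of all 4 lists, with a median of 98.3% for peaks of the Indian fantail hindlimb (quartiles 89.7 and 100%). For those of the racing homer hindlimb it was 93.4% (quartiles 81.2 and 99.5%). The cover thus differed in the same direction where both hindlimbs had a peak. The interval common to all 3 lists had a median of 1105.5 bp, and 15 members had none, being joined through a chain of overlaps. Midpoints of hindlimb and forelimb peaks lay a median of 172.25 bp apart for the Indian fantail forelimb and 200.25 bp for the racing homer forelimb. The midpoints of the forelimb peaks lay 164.5 bp apart, so the hindlimb peak was centred about as near to each forelimb peak as these were to each other. This is not particular to members, since the medians over regions in all 4 lists were 141, 157.5 and 133 bp, in the same order.

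Over the 666 members, cover had a Spearman rho of 0.43 with the hindlimb rank. Its rho with the number of forelimb bases was -0.48, but that number is the denominator of the cover, so a negative relation is built in. Only 8 members (1.20%) had a cover under 25%, a count with no share over other regions beside it. The lowest was 8.40%, on scaffold 454 at 2662277–2666249, followed by 11.1% on scaffold 526 at 144267–147666, and the longer *Tbx5* member came next.

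The 10 members with the highest Indian fantail hindlimb scores included 3 of the long regions, and the other 7 were between 2121 and 2858 bp long. At 1321767–1324010 of scaffold 454 the hindlimb score was 564.41 (rank 87.9), with the Indian fantail and racing homer forelimb peaks at ranks 56.6 and 25.4. A racing homer hindlimb peak with a score of 96.81, at 1324021–1325294, began 10 bp beyond this member, so that it missed the all-list pattern by that distance. On scaffold 68, the member at 3206323–3208889 had a hindlimb score of 397.29 (rank 81.8), with the Indian fantail and racing homer forelimb peaks at ranks 57.2 and 74.6. The member at 3386415–3389267 of the same scaffold had 359.11 (rank 79.7), with forelimb ranks of 74.6 and 64.7. The hindlimb score was 374.2 (rank 80.5) on scaffold 122 (4005606–4008463), with forelimb ranks of 39.3 and 59.8. It was 369.11 (rank 80.2) on scaffold 394 (370504–372689), with forelimb ranks of 23.6 and 22.0. It was 345.38 (rank 78.8) on scaffold 87 (6322847–6324967), with forelimb ranks of 19.6 and 36.6. The last of the 10, on scaffold 590 (646403–649175), had 336.42 (rank 78.1), with forelimb ranks of 63.2 and 45.2. The hindlimb rank was above both forelimb ranks in all 7, which their choice by hindlimb score largely fixes.

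The remaining 5 of the 10 longest members ranged between 5281 and 9336 bp. On scaffold 7, at 10716290–10725625, the hindlimb score was 201.57 and a racing homer hindlimb peak lay 550 bp away. On scaffold 577, at 796932–805102, the hindlimb score was 51.12 (rank 1.35) and the cover 18.4%. The region at 24657–30244 of scaffold 38, described above, had a cover of 22.5%. On scaffold 399, at 118983–124472, the hindlimb had 2 peaks with scores of 88.4 and 132.51, and the nearest racing homer hindlimb peak was 997861 bp away. On scaffold 237, at 3723651–3728931, the hindlimb score was 84.08. That hindlimb peak, at 3723760–3725821, did not overlap the racing homer forelimb peak at 3726099–3728931. They were joined only through an Indian fantail forelimb peak. None of these 5 hindlimb peaks reached rank 75, which only the highest 16 of the 666 members by hindlimb score did.

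The rule has a border at the peak caller's lowest score, and regions lay close to it on both sides, members on 1 and regions of all 4 lists on the other. The 5 members with the lowest Indian fantail hindlimb scores had 50.01, 50.03, 50.2, 50.32 and 50.62, and would have been forelimb-only regions had these peaks not been called. Just outside the rule, the 5 regions of all 4 lists with the lowest racing homer hindlimb scores had 50, 50.14, 50.15, 50.15 and 50.25, and would have been members without these peaks. The Indian fantail hindlimb scores of those 5 were 97.05, 225.83, 156.41, 67.22 and 378.47, within the range of the members.

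The distance to the racing homer hindlimb list varied widely. The median gap between a member and the nearest such peak was 8379 bp (quartiles 2185.75 and 24741.8 bp). This median depended on the setting, and was 1650 bp under the 50% overlap, 13884 bp with scores of at least 100 and 19272 bp with scores at or above the list median. Under the 50% overlap a racing homer hindlimb peak of lesser overlap counted as absent and may touch a member, so that gap is another measure. The gap was within 1 kb in 104 members (15.6%), within 10 kb in 363 (54.5%) and over 100 kb in 42 (6.31%). These counts have no share over other regions beside them. In the mirror pattern the median gap to an Indian fantail hindlimb peak was 9248 bp (quartiles 2701 and 22722 bp). It was taken over the 265 regions with such a peak on the scaffold. In the 465 forelimb-only regions with a racing homer hindlimb peak on the scaffold, the median gap was 11817 bp (quartiles 3208 and 42751 bp). The 5 nearest were at 6, 10, 30, 36 and 43 bp, on scaffolds 47, 454, 432, 123 and 272. Between the gap and the Indian fantail hindlimb rank, Spearman rho was -0.03 over the members. Both *Tbx5* members fell in the upper part of the distribution, as the histogram of gaps shows.

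**Figure D5:**
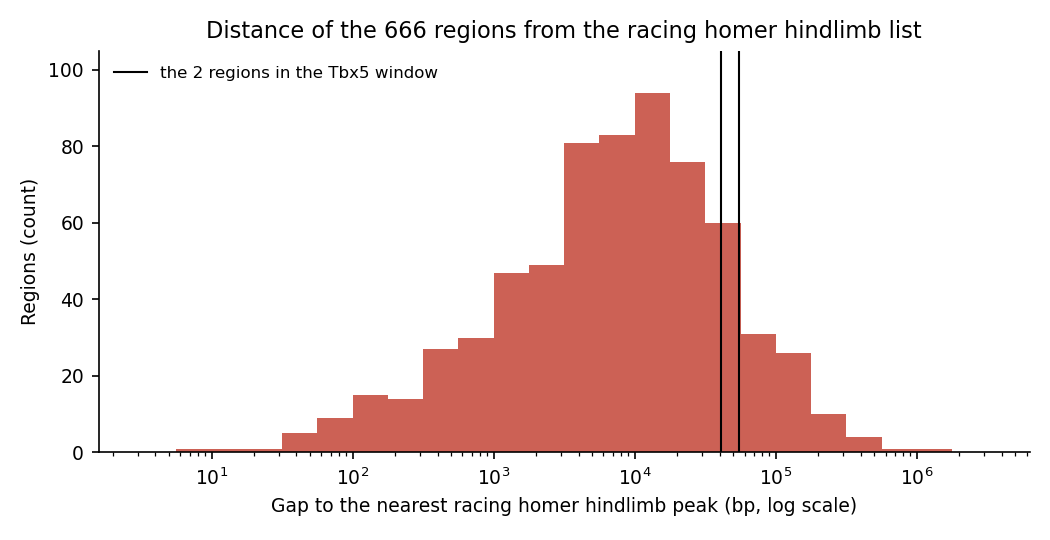
Number of members (vertical axis, count) by the gap to the nearest racing homer hindlimb peak (bp, log scale), with black lines at the members in the Tbx5 window. The gaps run between 6 and 1321366 bp with a median of 8379 bp, and the lines stand at 40547 and 55106 bp.

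Members were scattered over the genome. They lay on 273 of the 837 scaffolds that held any merged region, 131 of these with a single member. The largest number was 16 of 663 merged regions on scaffold 7, followed by 13 of 222 on scaffold 1 and 13 of 420 on scaffold 123. On the 61 scaffolds with at least 100 merged regions, the share of members ran between 0 and 6.56%, with a median of 2.38%, and 3 of these scaffolds had none. Scaffold 577 had the highest share, with 8 of 122. Scaffold 70 held no member but the 2 of the *Tbx5* window among its 41 merged regions.

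Most members stood alone among their neighbours. Of the 666, 626 had no other member as the next merged region on either side, 17 pairs were neighbours, and 2 runs held 3 members each. The members in pairs or runs numbered 40 in all, and 110 of 807 under the 50% overlap, where racing homer forelimb peaks were the regions. The run on scaffold 1 held the regions 1107358–1108684, 1110138–1112091 and 1120772–1122304, with Indian fantail hindlimb scores of 60.71, 128.45 and 71.47. The run on scaffold 503 held 535229–538483, 551054–554089 and 555585–557856, with hindlimb scores of 277.05, 118.52 and 71. The pair in the *Tbx5* window was the only pair or run among these with members longer than 10 kb. Another member lay within 20 kb of 62 members (9.31%), a count with no share over all regions beside it. Of 1310 neighbours of members, 42 were members (3.21%, interval 2.38 to 4.31%), against 2.56% of 51238 neighbours of all regions (2.42 to 2.70%). Standing alone is thus mostly what the low share of members among all regions gives.

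The regions next to members were compared with those next to any region. Of 1310 neighbours of members, 23.3% had a hindlimb peak in the Indian fantail and not in the racing homer, against 24.6% of 51238 neighbours of all regions. A neighbour present in all 4 lists made up 37.6%, against 36.9%. A racing homer hindlimb peak was found in 62.8% of the neighbours of members (interval 60.2 to 65.4%), against 65.9% (65.5 to 66.3%). Neighbours with a forelimb peak and no hindlimb peak, as around *Tbx5*, were 13.9% (interval 12.1 to 15.9%), against 9.51% (9.26 to 9.77%). They were 20.4% beside forelimb-only regions and 18.9% beside regions of the mirror pattern. Neighbours share regions with each other and are not independent, so the intervals are too narrow.

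The window of *Pitx1* and *H2afy*, which encodes a histone variant (6.7 to 7 Mb of scaffold 79), held 26 merged regions and no member, and no region of the mirror pattern. These patterns made up 2.52% and 1.02% of all regions, so 26 regions would hold few or none at those shares. The Indian fantail deletion upstream of *Pitx1* lies in this window, and no Indian fantail peak could be called over the deleted bases. In 12 of the 26 both hindlimb lists had a peak, and 4 had peaks in all 4 lists. Over all merged regions, 36.7% had peaks in all 4 lists. The other patterns with both hindlimb lists made up 9.31% (no forelimb list), 5.68% (racing homer forelimb) and 4.65% (Indian fantail forelimb). Scaffold 79 as a whole held 5 members among 431 merged regions, with Indian fantail hindlimb scores of 72.78, 111.08, 63.5, 160.25 and 56.46. Scaffold 95, which adjoins scaffold 70 in the study's linkage map, held 3 among 58, with hindlimb scores of 97.62, 58.01 and 87.39. None of these 8 members had a hindlimb peak that reached rank 75. Only the highest 16 of the 666 members by hindlimb score did, so 8 members would hold few or none at that share.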

How the data were processed

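Limb buds were collected from HH25 embryos of both breeds, and ChIP with an antibody against H3K27ac was followed by single-end sequencing. The submitters' processing notes name CASAVA, Bowtie2 2.2.3, SAMtools, MACS 1.4.2 and MACS2 2.0.10.20130915, with no role given. In the study's methods, MACS made the fold-enrichment plots and bdgdiff of MACS2 compared the hindlimbs of the breeds. The genome build, the use of the inputs in peak calling and the way replicates were combined are not given in the sources used here. The authors deposited 4 peak lists with a score per peak, whose scale is not stated and which looks like that of MACS, and peak positions in bp. The deposited starts count from 0, and 1 was added. The 2 tables of the authors' own comparison between hindlimbs, which hold log10 likelihood ratios, were not used.

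Peaks were merged and counted with scipy 1.17.1 and numpy 2.4.6 under Python 3.11.15, and plots were made in matplotlib 3.10.9. The procedure was tested on simulated peaks. These held at most a single peak per list at each site, with sites well apart. Split peaks, chains of overlaps and neighbours that nearly touch were therefore not tested. A region's score in a list is that of its highest peak there, and its width is the bases its peaks cover. Shares have 95% Wilson intervals, and medians compared between settings have 95% order-statistic intervals. Scores give no depth, so precision beyond counting is unknown. No genome or annotation of the build was used here, so the planned motif search and limb gene list were not run, and no sequence is shown. Of gene positions, those of the *Tbx5*, *Tbx3* and *Pitx1* windows come from the study.

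The regions named are those in the *Tbx5* window, the 10 highest in the Indian fantail hindlimb, the 10 longest, those in runs of 3 or more, the 5 on each side of the score border and the 5 nearest to a racing homer hindlimb peak. Others were named after their values were seen. The members, lists and windows were chosen with earlier results of these data known. Alternatives were a 50% overlap of both peaks, scores at or above the list median, scores of at least 100, lists of equal size, gaps of up to 500 bp joined, no hindlimb peak of the other breed within 1 kb and, added later, an interval common to all lists.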

Additional observations from a re-analysis of the deposited data

How the results depend on the processing

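No paired analysis was possible because each list merges its replicates, which also means that no replicate could be left out. Of 84 values under 7 alternatives, 45 kept the direction and stayed within the 95% interval of the main value (counts, within 1.5 times), 38 moved and 1 turned its direction. The causes were not tested. The intervals were Wilson intervals for shares and order-statistic intervals for medians, and both treat regions as independent. With an overlap of 50% of both peaks, the share of single-hindlimb regions in the Indian fantail was 44.0%. Racing homer hindlimb peaks of lesser overlap counted as absent in this setting and may touch a member, so its gap is another measure than in the main rule. Median widths were then 1815 bp in the Indian fantail hindlimb, 1765 bp in its forelimb and 1623 bp in the racing homer forelimb, with median ranks of 47.4, 42.7 and 45.2, cover of 89.2%, a gap of 1650 bp to the nearest racing homer hindlimb peak, 110 members in runs (main count 40) and 1 member near *Tbx5* (main count 2). With scores at or above the list median, 410 members were found, with widths of 2449.5, 2371.5 and 2099 bp in the same order, ranks of 67.6, 67.8 and 66.6, cover of 93.6% and a gap of 19272 bp. With scores of at least 100 there were 437 members and the share was 74.96%, with widths of 2214, 2148 and 1924 bp, ranks of 63.9, 63.1 and 60.2, cover of 92.7% and a gap of 13884 bp. With lists of equal size the share was 55.7%, the Indian fantail hindlimb width 1861 bp, the ranks 52.2, 39.5 and 39.5, the cover 93.0% and the gap 10962 bp. Ranks stayed those of the full lists, so a setting that drops low scores raises them by construction. In the lists that lost peaks, the rise in ranks under these settings is therefore not a result. The equal-size cut took the most peaks from the Indian fantail hindlimb list and none from its forelimb list. The median rank in that forelimb list moved from 35.2 to 39.5 with no score dropped from it, and the reason was not tested. The gap was 11152 bp with gaps of up to 500 bp joined and 11617.5 bp with no hindlimb peak of the other breed within 1 kb. An interval common to all lists, added after the data were seen, moved none. These filters exchange members as well as removing them, since only 48 of the 410, 87 of the 437 and 351 of the 680 regions under the median, score of 100 and equal-size settings overlapped one of the 666. The *Tbx5* window held 2 members under each alternative but the 50% overlap. Since the pattern was chosen from this place, members found there are a description and no support for the rule.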
